A study of Mus musculus with 36 samples.

Results

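The accessibility of chromatin around 10 Polycomb and DNA methylation genes was followed in mouse CD4 T cells by ATAC-seq, a method that maps open DNA through the insertions of a transposase. The genes were Ezh2, Eed and Suz12 of Polycomb repressive complex PRC2, Dnmt1, Dnmt3a, Dnmt3b and Uhrf1 of DNA methylation, and Tet1, Tet2 and Tet3 of its removal. A consensus peak was taken as a member when its midpoint was nearest to the start of a protein-coding transcript of one of them, or when it overlapped one of their gene bodies (GENCODE vM39, GRCm39). Of 71509 peaks, 94 were members, of which 60 met both criteria, 31 the nearest start alone and 3 the gene body alone. Among them 13 covered a start site of the gene and are called promoter peaks, 44 lay in introns, 6 in exons or UTRs and 31 outside the gene. Tet2 had 19 peaks, Tet3 18, Dnmt3a 16, Eed 14, Ezh2 10, Tet1 9, Dnmt1 4 and Dnmt3b 2, while Suz12 and Uhrf1 had 1 each. All 94 passed the filter on low counts. The median width was 870 bp for the members and 750 bp for all peaks.

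The 36 libraries formed 12 groups of 3, from 2 mouse lines of mixed 129/Sv and C57BL/6 background. HP1α-deficient mice carried a germline deletion of Hp1a (Cbx5), made with CMV-cre, and their WT controls were +/+ littermates. HP1γ-deficient mice carried Hp1g (Cbx3) flox/flox with Cd4-cre, which acts in the T lineage, and their controls were flox/flox littermates without Cre, so that both HP1γ groups carried the floxed allele. Naive CD4 T cells came from the spleen of donors aged 6 to 12 weeks, and Tconv were TCR Vβ6+ CD4 T cells sorted from the spleen 3 weeks after naive cells had been transferred, with or without ex vivo expanded Treg, into irradiated hosts (B6 mice carrying CD45.1, or C57BL/6 J mice) given bone marrow of C57BL/6 J and B6D2F1 mice. Each of the 6 groups of a line was thus naive, Tconv or Tconv with Treg, KO or WT. Ezh2 lies 3.875 Mb from Cbx3 on chromosome 6.

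Libraries held 1.49 to 96.8 M reads in peaks. In keeping with the study's own choice, 3 HP1α libraries were left out, WT Tconv with Treg replicate 3 and KO Tconv with Treg replicates 2 and 3. The study's reason was a low fraction of reads in peaks and a low enrichment at start sites. HP1α cells with Treg were thus compared as 1 KO library of 50.7 M reads against 2 WT libraries of 12.7 and 1.49 M. All 8 T cell markers (Cd3e, Cd3d, Cd3g, Cd28, Cd5, Thy1, Lck and Tcf7) had a promoter peak, but Cd4 was not among them. Cd8a and 3 of the 4 B cell markers reported (Cd79a, Cd79b and Ms4a1, but not Pax5) had no promoter peak. Nor had 3 of 5 myeloid (Lyz2, Csf1r and Adgre1) and 2 of 3 NK cell markers (Ncr1 and Klrb1c). Levels are given in CPM, the reads in a peak scaled to the depth of the library by TMM over all libraries. A peak was called when its adjusted p was under 0.05 and its absolute log2 fold change over 1. The material was bulk, so fewer cells with an open site and less signal per cell cannot be told apart.

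PRC2 places methyl groups on histone H3 at repressed genes. EZH2 is its catalytic subunit, EED binds the mark already in place and SUZ12 holds the complex together. DNMT1 copies DNA methylation after replication at sites found by UHRF1, DNMT3A and DNMT3B add it to unmethylated DNA, and the TET dioxygenases oxidise methylcytosine. In CD4 T cells these enzymes are known for their part in keeping cytokine and lineage genes silent or open as naive cells become effector cells.

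The sequences below are those of elements on which the results turn, together with 3 promoters that held a motif upstream of the start. Capitals mark the matches of the motif named for each set, and in the Dnmt1 stretch 1 RUNX match is left in lower case. The motifs, sought on both strands, were TGANTCA (AP-1), TGTGGT (RUNX), TTCCCGC (E2F-like) and GCATGCG (NRF1-like), and distances are from the 5′ end of the gene record to the midpoint of the peak. All stretches were read from GRCm39.
The 4 elements that differed between KO and WT with Treg in both lines and held AP-1 motifs:
Tet2 81.7 kb upstream (chr3:133332464-133332583, + strand): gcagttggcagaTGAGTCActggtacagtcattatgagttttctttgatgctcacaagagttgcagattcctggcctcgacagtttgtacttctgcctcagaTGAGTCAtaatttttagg
Tet2 18.5 kb upstream (chr3:133269408-133269527, + strand): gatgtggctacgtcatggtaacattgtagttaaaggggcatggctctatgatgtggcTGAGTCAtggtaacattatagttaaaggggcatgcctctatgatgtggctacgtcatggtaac
Tet2 213.5 kb upstream (chr3:133464211-133464330, + strand): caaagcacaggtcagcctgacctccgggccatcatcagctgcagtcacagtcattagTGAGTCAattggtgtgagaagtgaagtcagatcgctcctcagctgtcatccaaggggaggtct
Ezh2 25.9 kb upstream (chr6:47598096-47598215, + strand): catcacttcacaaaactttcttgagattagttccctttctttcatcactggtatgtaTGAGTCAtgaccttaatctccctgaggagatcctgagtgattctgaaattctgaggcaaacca
Elements more accessible in Tconv than in naive cells, with AP-1 motifs:
Dnmt1 1.9 kb upstream (chr9:20872944-20873063, + strand): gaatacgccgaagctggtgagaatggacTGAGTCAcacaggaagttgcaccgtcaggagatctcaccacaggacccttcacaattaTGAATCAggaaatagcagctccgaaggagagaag
Eed 22.5 kb upstream (chr7:89652689-89652808, + strand): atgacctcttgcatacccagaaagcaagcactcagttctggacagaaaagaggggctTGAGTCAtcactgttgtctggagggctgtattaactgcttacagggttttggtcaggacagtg
A Tet1 element more accessible in naive cells, with RUNX motifs:
Tet1 intron 68.1 kb downstream (chr10:62676603-62676722, + strand): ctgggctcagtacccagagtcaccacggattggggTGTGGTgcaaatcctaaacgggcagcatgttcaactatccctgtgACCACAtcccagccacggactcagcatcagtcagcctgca
Promoters upstream of the start, on the strand of the gene, with E2F-like (Ezh2 and Suz12) and NRF1-like (Eed) motifs:
Ezh2 promoter (chr6:47572332-47572431, - strand): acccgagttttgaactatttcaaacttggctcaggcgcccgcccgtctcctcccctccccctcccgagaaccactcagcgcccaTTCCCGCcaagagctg
Suz12 promoter (chr11:79883694-79883793, + strand): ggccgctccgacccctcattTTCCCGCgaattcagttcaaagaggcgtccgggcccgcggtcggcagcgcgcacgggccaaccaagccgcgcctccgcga
Eed promoter (chr7:89630368-89630467, - strand): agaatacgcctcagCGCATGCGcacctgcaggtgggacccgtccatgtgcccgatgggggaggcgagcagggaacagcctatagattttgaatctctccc

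Promoters of the 10 genes, taken as 250 bases before the start and 50 from it on, had a median GC content of 62.7% and a median of 21 CpG, against 52.3% and 8 for 21770 protein-coding genes. The window of Tet1, at the start used for it, held 5 CpG and lay outside its main promoter peak, whereas the other 9 windows lay within theirs. TTCCCGC was found in 3 of the 10, those of Ezh2, Suz12 and Uhrf1, and in 4.85% of all promoters. GCATGCG was found in those of Dnmt1 and Eed, and in 4.23% of all. Away from promoters, the central 300 bases held TGANTCA in 22 of 81 members (27.2%) and in 14.7% of 59003 peaks. The corresponding shares for TGTGGT were 29.6% and 33.7%. A match describes the letters alone.

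The promoters of most of these genes were open in every group. Over the 33 libraries kept, the main promoter peak, the one with the most reads, had a level per kb of 40.2 CPM ± 6.38 (SD) for Eed, 34.9 ± 4.96 for Ezh2, 34.0 ± 5.75 for Dnmt1 and 32.6 ± 5.72 for Suz12. Tet3 followed at 26.7 ± 4.18, Uhrf1 at 24.9 ± 2.41, Dnmt3a at 20.2 ± 3.49 and Tet2 at 19.4 ± 2.85 CPM per kb. Dnmt3b, at 12.2 ± 3.07, and Tet1, at 5.07 ± 2.79, were the lowest. In that order, the gap between Suz12 and Tet3, between Uhrf1 and Dnmt3a, between Tet2 and Dnmt3b and between Dnmt3b and Tet1 was larger than the SD of either neighbour, the gap between Eed and Ezh2 was larger than the SD of Ezh2 alone, and the other neighbours lay within 1 SD of each other. For Eed, Ezh2, Dnmt1, Suz12 and Tet3 the lowest group was HP1α WT Tconv with Treg, which was also the group of the lowest depth. The effect of depth on these levels was not tested apart.

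**Figure D1:**
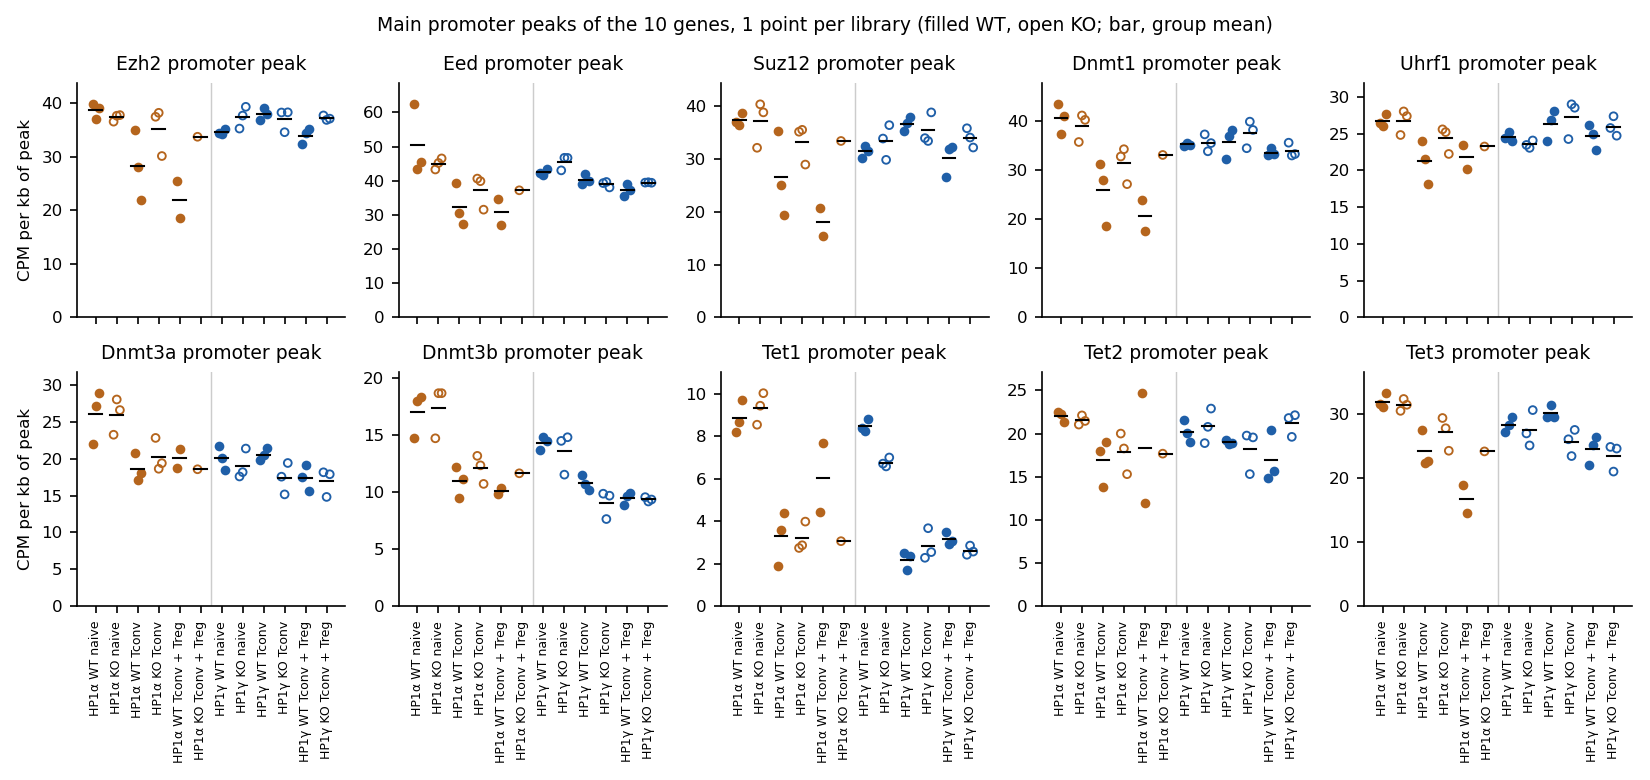
Level of the main promoter peak of each gene, in CPM per kb of peak (vertical axes, from 0), in each library kept, by group (horizontal axis), with HP1α groups in orange and HP1γ groups in blue, WT filled and KO open, and a bar at the group mean. The mean of the Tet1 promoter is higher in each of the 4 naive groups than in any Tconv group, but 1 of the 2 HP1α WT libraries with Treg lies above the HP1γ KO naive libraries, whereas those of Uhrf1 and Ezh2 differ little between groups of the HP1γ line.

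Across the 12 groups the main promoters varied far less than the other peaks. The range of the group means was 0.85 log2 CPM (median of 10, from 0.34 to 2.01), close to the 0.83 of 11107 main promoters, and 2.43 for the 81 members off promoters (from 0.36 to 6.88) against 2.30 for all peaks off promoters. Over the 33 libraries, the promoter whose log2 CPM was most like that of Tet1 among 11106 was Ckap4 (Pearson r = 0.98), and those most like Suz12, Ezh2 and Eed were Fuca1 (0.98), Ganab (0.97) and Cul3 (0.95). For the DNA methyltransferases they were Dedd2 and Zfp526, which share a peak, for Dnmt1 (0.97), Camsap2 for Dnmt3b (0.94) and Ncoa1 for Dnmt3a (0.86), and for 2 others Zfp652 for Tet3 (0.95) and Dyrk1b for Uhrf1 (0.90). These are descriptions over libraries that share their groups and depths.

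Between naive cells and Tconv, 54.3% of the members changed in HP1γ WT and 50% in HP1α WT cells. In WT cells of the HP1γ line 32 members were called higher and 19 lower in Tconv, where 46.5% of all peaks tested were called (24.5% higher and 22.0% lower). In the HP1α line 30 were higher and 17 lower in WT cells, with 42.5% of all peaks called (24.9% and 17.5%). KO cells had 29 and 17 calls in the HP1α line (42.5% of all peaks, 23.5% higher and 19.0% lower) and 31 and 18 in the HP1γ line (43.0%, 22.4% and 20.6%). The median log2 fold change in WT cells was 0.18 for members and 0.08 for all peaks in the HP1γ line, and 0.09 and −0.03 in the HP1α line. The WT groups of the 2 lines share no library, and 28 members were called higher in both, which is 93.3% of those of the HP1α line and 87.5% of those of the HP1γ line, 16 were lower in both (94.1% and 84.2%), and 0 were called in opposite directions. Over all peaks, the shares called in the same direction were 86.3% and 87.8% for higher, and 93.3% and 74.5% for lower. The labels give no batch of preparation, so that a difference in preparation and the difference between naive cells and Tconv cannot be told apart.

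Of the 10 main promoters only that of Tet1 was called in any of the 4 comparisons. Of all main promoters 11.6% (HP1α WT), 11.2% (HP1α KO), 12.9% (HP1γ WT) and 11.3% (HP1γ KO) were called, so that 1 of 10 was near the share of promoters in general. The Tet1 promoter stood at 12.8, 12.6 and 13.5 CPM in the HP1γ WT naive libraries and at 3.84, 2.59 and 3.58 CPM in WT Tconv, and at 12.5, 13.3 and 14.8 against 2.87, 5.51 and 6.68 CPM in the HP1α line. Naive and Tconv libraries did not overlap, and the log2 fold change was −1.89 ± 0.15 (SE, adjusted p = 1.4e-09) and −1.75 ± 0.23 (4.63e-06). In KO cells it was −1.27 ± 0.16 in the HP1γ line and −1.58 ± 0.19 in the HP1α line. The Dnmt3b promoter was lower in Tconv with an adjusted p under 0.05 in all 4 comparisons, but by less than the fold threshold, at −0.34 in HP1γ WT and −0.56 in HP1α WT cells. Log2 fold changes of the other 8 lay between −0.54 and −0.23 in HP1α WT cells and between −0.03 and 0.29 in HP1γ WT cells, where 6 of the 8 were above 0. The median of all main promoters was −0.29 in the former and 0.08 in the latter.

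Of the PRC2 genes, Eed and Ezh2 had many assigned peaks off their promoters that gained accessibility. The 13 such members of Eed lie outside the gene and are assigned by nearest start alone. A link between them and Eed was not tested. In HP1γ WT cells 9 of 14 Eed peaks gained accessibility in Tconv and 1 lost it, while 7 of 10 Ezh2 peaks gained and 0 lost it. The counts for HP1α WT cells were 8 and 1 at Eed, and 5 and 0 at Ezh2. Over all peaks, 24.5% were called higher and 22.0% lower in HP1γ WT cells, and 24.9% and 17.5% in HP1α WT cells. These shares apply to the counts of the other genes in this comparison as well. Suz12, with its promoter as the sole peak, had 0 calls.

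The largest gains lay upstream of Eed. The peak 58.5 kb upstream (chr7:89687781-89689680) stood at 0.587, 0.285 and 0.378 CPM in HP1γ WT naive libraries and at 23.8, 37.6 and 34 CPM in WT Tconv. In the HP1α line it stood at 0.849, 0.606 and 0.455 CPM in WT naive cells and at 25.6, 14.3 and 24.2 CPM in WT Tconv. It was thus near the floor in each naive library and among the open members in each Tconv library, with log2 fold changes of 6.33 ± 0.35 (adjusted p = 2.51e-11) and 5.21 ± 0.35 (1.75e-09). The peak 22.5 kb upstream (chr7:89651691-89653750), part of which is printed above with its AP-1 motif, behaved alike, rising from 0.572, 0.258 and 0.354 CPM to 22.4, 30.6 and 36.4 CPM in HP1γ WT cells, a log2 fold change of 6.32 ± 0.39 (9.04e-11). Its log2 fold change was 5.02 ± 0.32 (9.2e-10) in HP1α WT cells. In KO cells the peak 58.5 kb upstream had log2 fold changes of 5.58 (HP1α) and 5.45 (HP1γ), and that at 22.5 kb had 4.97 and 5.63. The Eed peak 61.1 kb upstream was already open in HP1γ WT naive cells, at 5.85 CPM ± 0.32 (SD, n = 3), and reached 39.3 ± 5.38 in WT Tconv (log2 fold change 2.81 ± 0.18, adjusted p = 1.21e-10). The Eed peak with the highest level per kb off the promoter, 26.5 kb upstream, had log2 fold changes of 3.03 in HP1γ and 2.12 in HP1α WT cells. Against these, the Eed peak 5.3 kb upstream was called lower, at −2.15 and −1.93.

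At Ezh2, the peak in the intron 34.5 kb downstream stood at 3.18, 2.92 and 3.19 CPM in HP1γ WT naive cells and at 39.6, 41.4 and 41.8 CPM in WT Tconv. In the HP1α line it went from 1.98, 3.41 and 3.22 to 30.3, 23 and 17.1 CPM, so that no Tconv library overlapped a naive one. The log2 fold changes were 3.79 and 3.16, and 3.81 ± 0.30 in HP1γ KO cells (adjusted p = 4.27e-09). The Ezh2 peak 25.9 kb upstream rose by 3.30 and 2.77 on the log2 scale. By contrast the Ezh2 peak 41.0 kb upstream, the highest per kb off its promoter, had log2 fold changes of 0.25 and 0.10 that were not called.

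**Figure D2:**
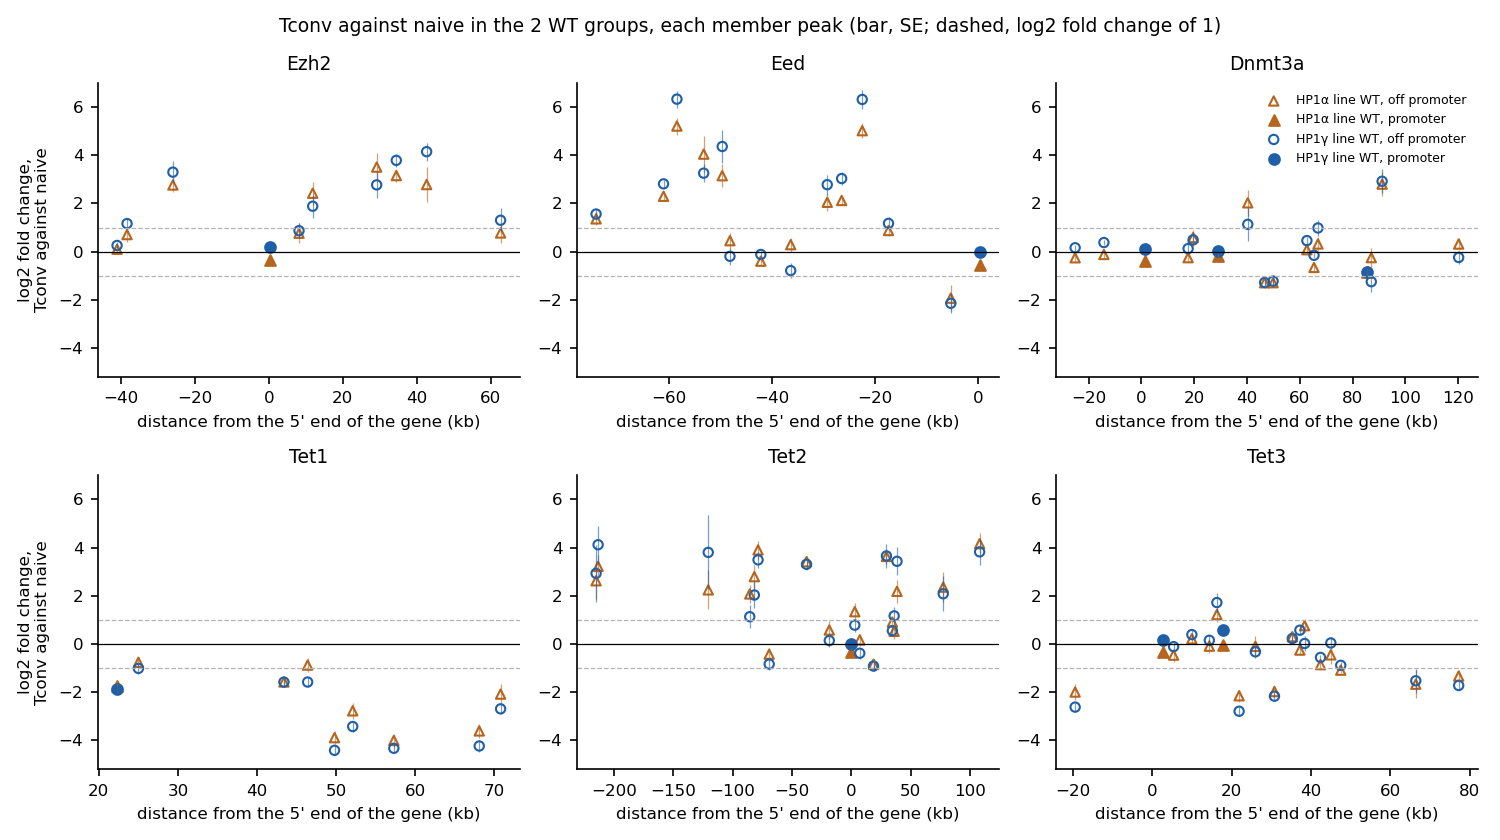
Log2 fold change between Tconv and naive cells in WT cells (vertical axes; bars, SE) of each member peak of the 6 genes with 9 or more peaks, against its distance in kb from the 5′ end of the gene (horizontal axes, negative upstream), for the HP1α line (orange triangles) and the HP1γ line (blue circles), promoter peaks filled and dashed lines at log2 fold changes of 1 and −1. Eed peaks 58.5 and 22.5 kb upstream stand highest, and all 9 Tet1 peaks lie below 0 in both lines.

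Among the DNA methylation genes, Dnmt1 gained 2 of its 4 peaks in both lines. The one 1.9 kb upstream of the gene record (chr9:20872361-20873820), which lies upstream of the promoter peak at 7.1 kb downstream, stood at 3.34, 4.1 and 3.55 CPM in HP1γ WT naive cells and at 27.3, 29.7 and 28.7 CPM in WT Tconv. All Tconv libraries were above all naive libraries in both lines, with log2 fold changes of 3.02 ± 0.21 (adjusted p = 3.56e-10) and 2.74 ± 0.22 (1.31e-08). The stretch of it printed above held 2 AP-1 motifs. The other, in the intron 10.6 kb downstream, had log2 fold changes of 2.58 in HP1γ and 2.66 in HP1α WT cells. Dnmt3a moved both ways, with 1 peak higher and 3 lower of 16 in HP1γ WT cells, and 2 and 2 in HP1α WT cells. Its intron peak 49.9 kb downstream stood at 18.1, 18.6 and 18.1 CPM in HP1γ WT naive cells and at 10.4, 5.69 and 5.91 CPM in WT Tconv, a log2 fold change of −1.23 (−1.29 in HP1α WT cells). Its intron peak 65.4 kb downstream, the highest per kb off the promoters, was not called, at −0.15 and −0.66. Of the 2 Dnmt3b peaks the intron one, 2.5 kb downstream, was called lower, at −1.93 ± 0.22 and −1.87 ± 0.28. Uhrf1, whose single peak is its promoter, had 0 calls.

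The 3 TET genes went apart. All 9 Tet1 peaks were called lower in HP1γ WT Tconv, and 7 of 9 in HP1α WT Tconv. Tet2 had 12 of 19 peaks called higher and 0 lower in WT cells of each line. Tet3 had 1 higher and 5 lower of 18 in HP1γ WT cells, and 1 and 6 in HP1α WT cells.

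The Tet1 intron peak 49.8 kb downstream (chr10:62694401-62695570) stood at 20, 21.4 and 20.2 CPM in HP1γ WT naive cells and at 0.833, 0.931 and 1 CPM in WT Tconv. In the HP1α line it stood at 17.6, 22.5 and 19.6 CPM in WT naive cells and at 0.848, 2.39 and 1.99 CPM in WT Tconv. Every naive library was above every Tconv library, with log2 fold changes of −4.42 ± 0.19 (adjusted p = 1.53e-12) and −3.90 ± 0.28 (1.79e-09). In KO cells they were −4.25 in the HP1γ and −3.99 in the HP1α line. The intron peaks 57.3 and 68.1 kb downstream had log2 fold changes of −4.34 and −4.24 in HP1γ WT cells, and −4.01 and −3.62 in HP1α WT cells. The Tet1 intron peak 43.4 kb downstream, the highest per kb off the promoter, was lower by less, at −1.59 and −1.58.

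At Tet2, the peak 37.7 kb upstream stood at 1.37, 0.923 and 0.94 CPM in HP1γ WT naive cells and at 9.51, 9.65 and 11.2 CPM in WT Tconv, a log2 fold change of 3.30 (3.41 ± 0.23 in HP1α WT cells, adjusted p = 1.88e-09). The Tet2 peak 108.3 kb downstream, beyond the end of the gene, rose by 3.82 and 4.16. The Tet2 peak 69.2 kb upstream, the highest per kb off the promoter, was not called, at −0.84 and −0.43. Leaving out HP1γ WT Tconv replicate 1 brought it to −1.16, past both thresholds. At Tet3, the peak 19.4 kb upstream stood at 12.9, 11.2 and 11.3 CPM in HP1γ WT naive cells and at 1.87, 2.03 and 1.52 CPM in WT Tconv. No library overlapped, and its log2 fold change was −2.63 ± 0.16 (adjusted p = 9.19e-11), and −2.00 in HP1α WT cells. Tet3 intron peaks 21.9 and 30.8 kb downstream were also lower, at −2.80 and −2.17 in HP1γ WT cells, whereas the one 42.4 kb downstream, the highest per kb off the promoter, was not called, at −0.56 and −0.86.

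**Figure D3:**
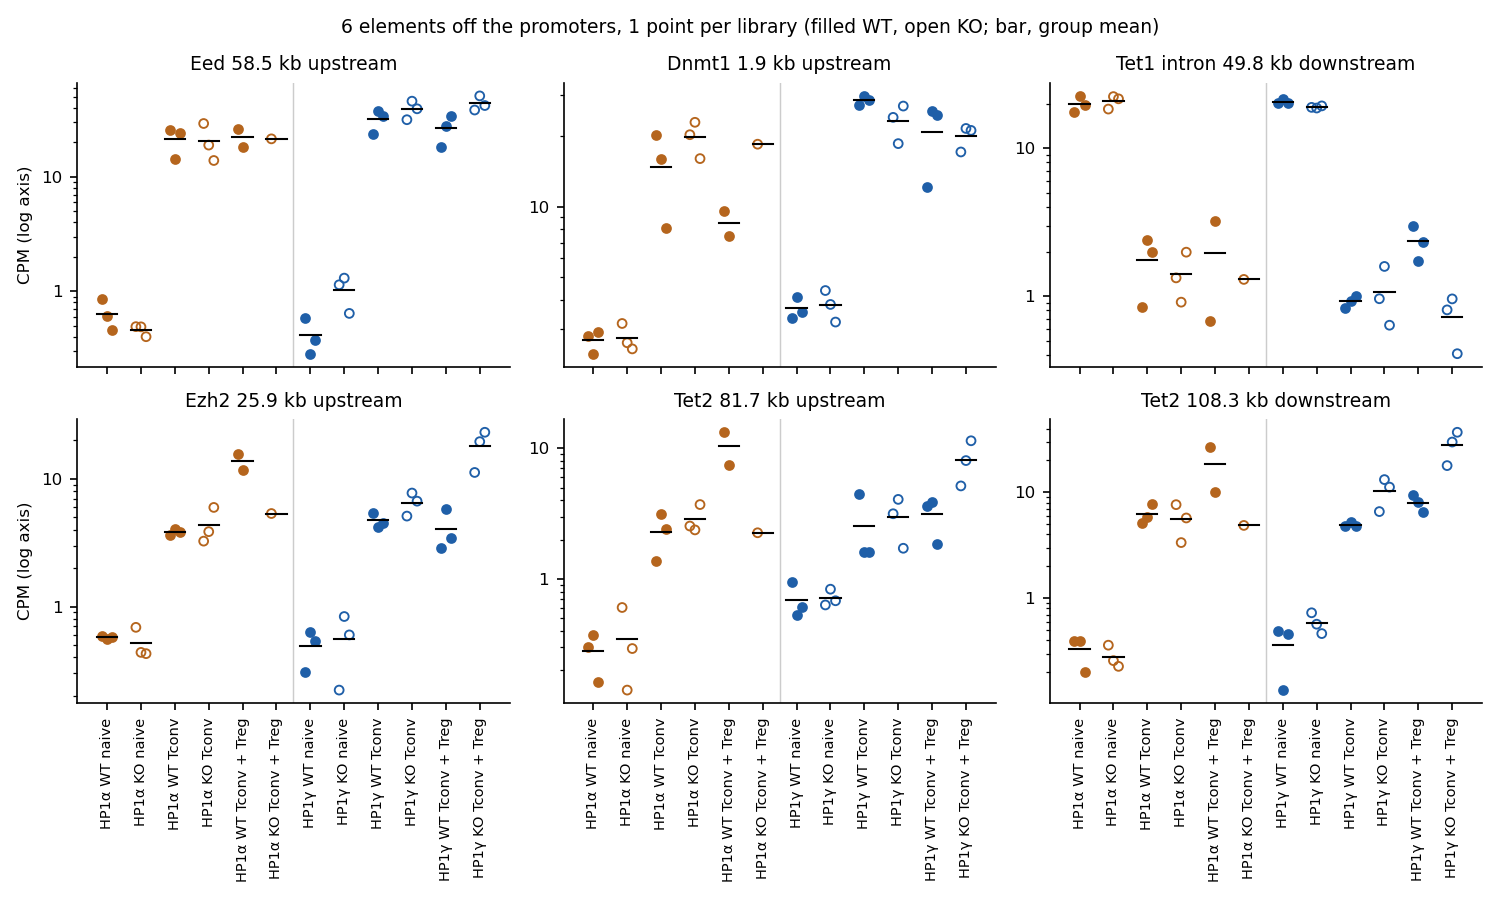
Level in CPM (vertical axes, log scale) of 6 elements off the promoters in each library kept, by group (horizontal axis), with HP1α groups in orange and HP1γ groups in blue, WT filled and KO open, and a bar at the group mean. The upper 3 separate naive cells from Tconv in both lines; the Ezh2 peak 25.9 kb upstream and the 2 Tet2 peaks stand highest in HP1α WT and in HP1γ KO Tconv with Treg.

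AP-1 motifs were commoner in the elements that gained accessibility than in those that lost it. In HP1γ WT cells TGANTCA was found in 13 of the 32 members off promoters called higher (40.6%) and 2 of the 18 called lower (11.1%), where the shares over all peaks off promoters were 22.8% and 9.82%. TGTGGT was found in 7 of the 32 called higher (21.9%) and 9 of the 18 called lower (50%), where the shares over all were 40.5% and 31.6%. These are counts of letters in the central 300 bases and were not tested.

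In naive cells, before transfer, the KO and WT groups differed at few or none of the members, depending on the tool. In naive cells 0 members were called for HP1α, by edgeR and by DESeq2, with 0 at an unadjusted p under 0.05, where 0.00559% of all peaks were called (0.0042% higher and 0.0014% lower). For HP1γ 0 were called by edgeR, 8 had an unadjusted p under 0.05 and 0.14% of all peaks were called (0.133% higher and 0.00699% lower), while DESeq2 called 3 higher in KO cells, the Tet2 peaks 213.5 kb upstream (log2 fold change 2.72) and 120.6 kb upstream (3.33) and the Eed peak 58.5 kb upstream (1.27). Over all peaks, 835 of 71509 (HP1α) and 6420 of 71508 (HP1γ) had an unadjusted p under 0.05. Log2 fold changes of the main promoters lay between −0.16 and 0.07 for HP1α and between −0.29 and 0.14 for HP1γ.

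In Tconv without Treg, HP1α-deficient cells had 0 called members by edgeR and by DESeq2, 5 with an unadjusted p under 0.05, where 0.021% of all peaks were called (0.00839% higher and 0.0126% lower). HP1γ-deficient Tconv had 1 higher and 2 lower, with 3.35% of all peaks called (1.69% and 1.66%). The Ezh2 exon peak 42.7 kb downstream stood at 2.96, 2.34 and 1.62 CPM in WT and at 0.459, 0.763 and 0.588 CPM in KO (log2 fold change −1.99 ± 0.31, adjusted p = 0.000726). The Dnmt3a intron peak 62.7 kb downstream stood at 6.38, 5.86 and 3.76 CPM in WT and at 2.21, 2.59 and 1.59 CPM in KO (−1.40 ± 0.22, 0.00114). In both, all KO libraries were below all WT libraries. The Tet2 peak 108.3 kb downstream stood at 4.83, 5.2 and 4.79 CPM in WT and at 6.58, 13.2 and 11.2 CPM in KO (1.05 ± 0.29, 0.0405), and this call was lost when any of HP1γ WT Tconv replicates 1, 2 and 3 or KO Tconv replicates 2 and 3 was left out (log2 fold changes 0.91 to 1.08). The count was 7 without WT Tconv replicate 3 and 5 without KO Tconv replicate 1.

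With Treg, HP1γ-deficient Tconv differed from WT at 15 members, of which 10 were called higher and 5 lower, where 11.9% of all peaks were called (6.48% and 5.38%). Of the 10, 9 were Tet2 peaks and 1 an Ezh2 peak. The 5 lower ones were the Tet1 intron peak 49.8 kb downstream, Tet3 intron peaks 10 and 26 kb downstream and the Dnmt3a intron peak 62.7 kb and exon peak 91.2 kb downstream. For the main promoters edgeR made 0 calls, with 1 at an unadjusted p under 0.05 and log2 fold changes from −0.24 to 0.31, where 2.17% of all main promoters were called. Over all 11107 main promoters, 3294 had an unadjusted p under 0.05. The count of called members fell to 7 without KO Tconv with Treg replicate 1, and to 8 without WT Tconv with Treg replicate 2. It was 8 (5 higher and 3 lower) when only these 2 groups were fitted.

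The Ezh2 peak 25.9 kb upstream (chr6:47597701-47598830) stood at 5.76, 3.46 and 2.86 CPM in HP1γ WT cells with Treg and at 23.2, 11.2 and 19.6 CPM in KO cells. The Tet2 peak 108.3 kb downstream (chr3:133141891-133143400) stood at 8.07, 6.47 and 9.47 CPM in WT and at 36.9, 17.9 and 29.8 CPM in KO. KO libraries were above WT libraries throughout, with log2 fold changes of 2.05 ± 0.27 (adjusted p = 9.75e-05) and 1.86 ± 0.25 (0.00012). The Tet2 peak 18.5 kb upstream stood at 9.06, 5.3 and 8.57 CPM in WT and at 23.3, 15.9 and 18.6 CPM in KO (1.36 ± 0.20, 0.000264). That at 81.7 kb upstream stood at 3.88, 1.87 and 3.62 CPM in WT and at 11.4, 5.14 and 8.04 CPM in KO (1.42 ± 0.36, 0.0106). Both separated the genotypes without overlap. Of the 19 Tet2 peaks, 15 had a log2 fold change above 0 in this comparison, with a median of 0.71, against a median of −0.02 for all peaks. Other called Tet2 peaks were those 120.6 kb upstream, at 2.42, 215.2 kb upstream, at 1.99, 213.5 kb upstream, at 1.65, in the exon 77.6 kb downstream, at 1.77, and in the intron 29.7 kb downstream, at 1.17. For the Tet2 exon or UTR peak 38.6 kb downstream, at 1.16, and the Dnmt3a exon peak 91.2 kb downstream, at −1.39, the libraries of the genotypes overlapped.

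Of the lower members, the Tet1 intron peak 49.8 kb downstream stood at 1.72, 2.32 and 3 CPM in WT cells with Treg and at 0.408, 0.808 and 0.958 CPM in KO cells (log2 fold change −1.65 ± 0.36, adjusted p = 0.00436). The Dnmt3a intron peak 62.7 kb downstream stood at 3.38, 4.03 and 3.24 CPM in WT and at 1.29, 1.76 and 1.78 CPM in KO (−1.16 ± 0.27, 0.00611). The Tet3 intron peak 10 kb downstream stood at 10.1, 15.3 and 10.3 CPM in WT and at 3.88, 7.18 and 4.1 CPM in KO (−1.21 ± 0.30, 0.00859). The genotypes did not overlap at any of these. The calls at Dnmt3a and Tet3 were lost without KO Tconv with Treg replicate 1 and without WT Tconv with Treg replicate 2. Of the 10 members called higher in HP1γ KO cells with Treg, 9 were also called higher in WT Tconv against naive cells of the line, comparisons that share no library, and the exception was the Tet2 peak 18.5 kb upstream (log2 fold change 0.14). For all peaks that share was 55.1%. TGANTCA was found in 7 of the 10 (70.0%), and in 31.8% of all peaks off promoters called higher in this comparison.

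In the HP1α line the comparison with Treg set 1 KO library against 2 WT libraries, so that the spread of the KO group was taken from the other groups. Here 5 members were called lower in KO cells and 0 higher, where 1.63% of all peaks were called (1.41% lower and 0.218% higher). They were Tet2 peaks 213.5, 81.7 and 18.5 kb upstream and 108.3 kb downstream, and the Ezh2 peak 25.9 kb upstream. The 5 calls were lost when WT Tconv with Treg replicate 1 was left out, with the older quasi-likelihood estimate of edgeR, with depth as a covariate and when only these groups were fitted (0 calls each), while 3 were left without WT replicate 2 and with all 18 HP1α libraries. With 18 libraries those were the Tet2 peaks 213.5 kb upstream, at −2.01, 81.7 kb upstream, at −1.88, and 108.3 kb downstream, at −1.76.

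The Tet2 peak 213.5 kb upstream stood at 15.9 and 10.7 CPM in HP1α WT cells with Treg and at 2.37 CPM in the KO library, and at 9.06 CPM in the WT and 5.61 and 5.18 CPM in the KO libraries left out (log2 fold change −2.67 ± 0.41, adjusted p = 0.00272). The Tet2 peak 81.7 kb upstream stood at 13.2 and 7.48 CPM in WT, from 176 and 14 reads, and at 2.26 CPM in KO, and at 7.34 against 5.03 and 4.1 CPM in the libraries left out (−2.45 ± 0.46, 0.0106). For each, all 3 KO libraries were below all 3 WT libraries, but this counts libraries that the study left out for their quality. Values of those libraries are not given for the Tet2 peaks that follow. The Tet2 peak 108.3 kb downstream stood at 27 and 10.2 CPM in WT and at 4.87 CPM in KO (−2.31 ± 0.42, 0.00931), and the Tet2 peak 18.5 kb upstream at 29 and 24.6 against 6.05 CPM (−2.22 ± 0.46, 0.0204). The Ezh2 peak 25.9 kb upstream stood at 15.6 and 11.8 CPM in WT and at 5.36 CPM in KO (−1.49 ± 0.33, 0.0279), but among the libraries left out the WT one, at 5.61, lay below a KO one, at 6.87 CPM. Of the 19 Tet2 peaks 18 had a log2 fold change below 0 in this comparison, with a median of −1.27, against −0.11 for all peaks. The main promoters of the members had log2 fold changes from −0.67 to 0.77, with a median of 0.21 against 0.08 for all main promoters.

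The 5 members called lower in HP1α KO cells with Treg were all among those called higher in HP1γ KO cells with Treg, which is 100% of the former and 50% of the latter, from libraries not shared. Over all peaks, 805 of the 1011 called lower in the HP1α line (79.6%) were called higher in the HP1γ line, which is 17.4% of the 4635 there, so the crossing was not confined to these genes. The difference between the lines was not tested.

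**Figure D4:**
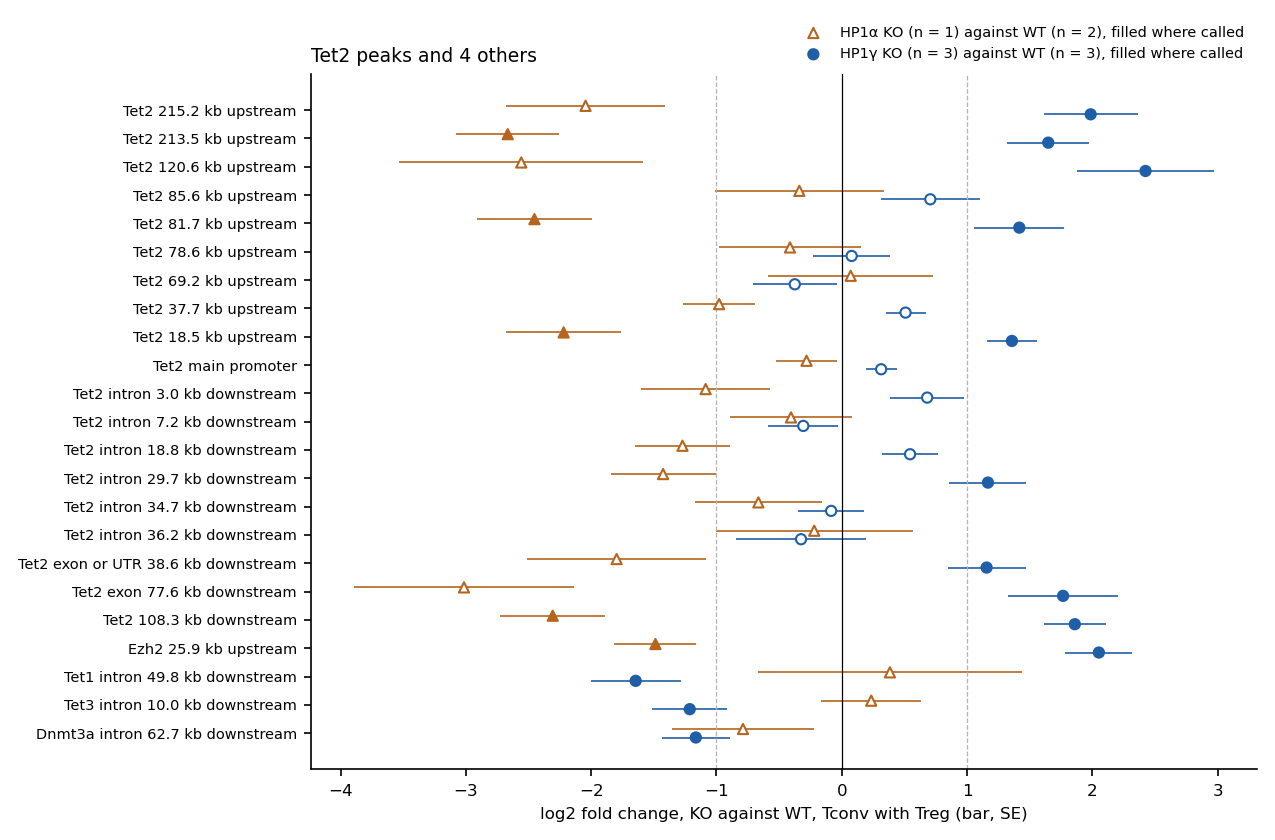
Log2 fold change between KO and WT Tconv with Treg (horizontal axis; bars, SE) of the 19 Tet2 peaks and 4 other members (vertical axis), for the HP1α line (orange triangles, 1 KO against 2 WT libraries) and the HP1γ line (blue circles, 3 against 3), filled where called and dashed lines at −1 and 1. At Tet2, 18 of 19 HP1α values lie below 0 and 15 of 19 HP1γ values above it.

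Other measures moved with these groups. The promoter of Pax5, a B cell marker that had a promoter peak, stood at 13.3 to 17.1 CPM in HP1α WT cells with Treg and at 5.21 CPM in the KO library, and at 4.03 to 8.43 CPM in HP1γ WT against 8.28 to 11 CPM in KO cells with Treg. Its log2 fold change was −1.41 (adjusted p = 0.0704) in the HP1α and 0.66 (0.0262) in the HP1γ line. The summed level of 4 Treg markers (Foxp3, Il2ra, Ikzf2 and Ctla4) was 229 to 277 CPM in HP1γ WT and 346 to 367 CPM in KO cells with Treg, with a log2 fold change of −0.03 for Foxp3, 0.75 for Ikzf2, 0.90 for Ctla4 and −0.64 for Il2ra. The summed level of the T cell markers was 705 to 910 CPM in HP1α WT cells with Treg and 1207 CPM in the KO library. The gate for Tconv required CD4 and TCR Vβ6 and left out cells with Thy1.1, the surface mark of the injected Treg. The purity of the sorted cells was not examined here. The part of these markers in the differences at Tet2 and Ezh2 was not tested.

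Between Tconv with and without Treg, most of the called members were Tet2 peaks. In HP1α WT Tconv 8 members were called higher with Treg than without and 0 lower, where 6.76% of all peaks were called (4.92% and 1.84%), and 7 of the 8 were Tet2 peaks and 1 the Ezh2 peak 25.9 kb upstream. The Tet2 peaks 213.5 and 81.7 kb upstream had log2 fold changes of 2.87 ± 0.37 (adjusted p = 0.000146) and 2.73 ± 0.42 (0.00081), and the Ezh2 peak one of 2.00 ± 0.31 (0.000829). The count was 0 without WT Tconv with Treg replicate 1, and 5 without WT Tconv replicate 1. In HP1γ KO Tconv 12 were called higher and 0 lower, where 8.15% of all peaks were called (6.1% and 2.06%), and they were 9 Tet2 peaks, Ezh2 peaks 25.9 kb upstream and 29.2 kb downstream, and the Tet1 intron peak 25.0 kb downstream. The strongest by adjusted p were Tet2 peaks 18.5 kb upstream, at 1.41 ± 0.19 (0.000183), 108.3 kb downstream, at 1.46 ± 0.22 (0.000439), and 215.2 kb upstream, at 2.14 ± 0.36 (0.000439). The count was 7 without KO Tconv with Treg replicate 1 or KO Tconv replicate 3, and 1 when only these groups were fitted. Of the members, 6 were called higher in both (75.0% of 8 and 50% of 12), where the shares over all peaks were 57.4% and 46.4%. These comparisons share the WT or KO libraries with Treg with those of KO against WT above, and so are no separate evidence.

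In the other genotype of each line 1 member or 0 were called with Treg, and the difference in counts was not tested. The HP1α KO comparison set 1 library with Treg against 3 without, with the spread of the former taken from the other groups. Here the Dnmt3a intron peak 62.7 kb downstream was called lower, at −1.61 ± 0.31 (adjusted p = 0.0221), where 0.55% of all peaks were called (0.266% higher and 0.284% lower), a call lost without KO Tconv replicate 2, while the count was 3 without KO Tconv replicate 1. In HP1γ WT Tconv 0 members were called by edgeR, where 0.138% of all peaks were called (0.0685% higher and 0.0699% lower). An unadjusted p under 0.05 was found at 19 of the 94 members and at 14522 of all 71508 peaks. With the replicate number as a block 3 were called, the Tet1 intron peaks 57.3 and 49.8 kb downstream higher with Treg, at 1.44 and 1.29, and the Ezh2 exon peak 42.7 kb downstream lower, at −1.48. DESeq2 called 5, these 3 with the Tet1 intron peak 52.1 kb downstream, at 1.13, and the Tet2 peak 215.2 kb upstream, at 1.80. The interaction of genotype and Treg was called at 0 members in either line by edgeR. For HP1α 13 members had an unadjusted p under 0.05, DESeq2 called 0 and 0.0461% of all peaks were called. For HP1γ the values were 18, 3 and 0.0014%, and the 3 called by DESeq2 were the Ezh2 peak 25.9 kb upstream, at 1.77, and the Tet1 intron peaks 57.3 and 49.8 kb downstream, at −1.74 and −1.74. With edgeR, the effect of Treg was thus not shown to differ between the genotypes at any member.

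Other genes of the same pathways were counted in the same comparisons. The list of 48 held further PRC2 and PRC1 genes, demethylases and deubiquitinases that act on the same marks, and readers of DNA methylation, of which 44 had a promoter peak, with 350 peaks in all. In HP1γ WT Tconv against naive cells 71 of these were called higher and 80 lower (43.1%, where 46.5% of all peaks were called), and in HP1α WT cells 74 and 65 (39.7%, where 42.5% of all peaks were called). The main promoter called in both was that of Scmh1, a PRC1 gene, at −2.37 and −1.97. In HP1α WT cells those of Gadd45a, at −1.46, and Pcgf5, at −1.07, were called too. Between KO and WT cells with Treg 19 were higher and 6 lower in the HP1γ line (7.14%, where 11.9% of all peaks were called), and 1 and 4 in the HP1α line (1.43%, where 1.63% of all peaks were called). The difference from the members was not tested.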

How the data were processed

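ATAC-seq libraries were made from sorted CD4 T cells. The authors deposited raw counts of reads per consensus peak, with no normalization, and a list of peak positions of no measured unit. According to the study's methods and processing notes, reads were trimmed with Trim Galore 0.6.7, aligned to GRCm39 and filtered for duplicates and mapping quality, peaks were called per sample with HMMRATAC and merged, and reads were counted with featureCounts 2.0.3 such that neighbouring peaks can share reads. Of 71512 intervals 3 had no width and were left out. All 36 columns matched a sample by its labels.

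Each line was fitted over its groups with edgeR 4.0.16 (R 4.3.3; filterByExpr, TMM scaling, quasi-likelihood F test), HP1α with 15 libraries and HP1γ with 18, with Benjamini-Hochberg adjustment over all peaks, two-sided. SE were derived from the F statistic. There were 16 comparisons. The labels do not say that the 3 libraries of a group came from separate animals, so p-values measure the spread between libraries, which may be technical. Biological variation in the fits (coefficient of variation) came to 28.0% in the HP1α and 22.3% in the HP1γ line, and depths from 1.49 to 96.8 M reads in peaks limited the precision of peaks with few reads.

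The members, gene lists and comparisons were chosen with earlier results of these data known. Peaks were named as the main promoter of each member, the 3 called members of smallest adjusted p in each direction, the highest member off the promoter per kb for each gene, and all of any count of 5 or fewer. All other peaks given with a value (called peaks of Tet2, Ezh2, Tet3, Dnmt3a, Dnmt1 and Eed among them, and those beside counts by other tools) were named after their values were seen.

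Same-numbered libraries deviated together, with all 3 correlations across peaks over 0.1, for HP1α KO and WT naive cells (0.245 to 0.497), HP1γ-deficient and WT Tconv with Treg (0.146 to 0.324), and HP1γ WT with and without Treg (0.201 to 0.287). This rests on the data alone, as no label gives the meaning of the numbers. For 3 comparisons the fit was first tested on simulated data, in which 200 peaks were changed by 2 on the log2 scale. It recovered 98.5% in the HP1γ comparison with Treg, 42.5% in that of HP1α and 100% for HP1γ WT Tconv against naive cells, with 11, 2 and 8 false calls. The simulated spread was the same for all peaks and lower than that fitted in the HP1α line. Only peaks above a limit of mean reads were changed, so recovery at peaks with few reads was not tested.

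Results were computed again, where the design allowed it, with loess offsets (span 0.3), scaling by library size only, depth as a covariate, no filter beyond 1 read, only the groups compared, all 18 HP1α libraries, the replicate block, DESeq2 1.42.0, nearest start alone and each library left out, and, chosen after seeing the data, the older quasi-likelihood estimate of edgeR. A table of promoter sequences on GRCm38 was not used. RNA-seq was not analysed here. Some items of the lists are not reported here.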

Additional observations from a re-analysis of the deposited data

Results flagged for a closer look

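At 6 of the members named by the rules above, KO libraries with Treg lay wholly on opposite sides of their WT libraries in the 2 lines. This holds among the libraries kept. The Ezh2 intron peak 11.9 kb downstream, not named by those rules, met this criterion too, and other members are not listed. The share of all peaks that met it is not reported here. The difference between the lines was not tested. The log2 fold change between KO and WT was −1.49 in the HP1α and 2.05 in the HP1γ line at the Ezh2 peak 25.9 kb upstream. At the Tet2 peak 108.3 kb downstream it was −2.31 and 1.86, and at that 18.5 kb upstream −2.22 and 1.36. At the Tet2 peak 81.7 kb upstream it was −2.45 and 1.42, and at that 213.5 kb upstream −2.67 and 1.65. The Tet3 intron peak 10 kb downstream had the other order, at 0.24 and −1.21, and was called in the HP1γ line alone. The HP1α values rest on 1 KO library.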

How the results depend on the processing

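Counts of called members between Tconv and naive cells stayed within 1.5 times under every alternative run (41 to 51), and with single libraries left out they were 45 to 47 (HP1α WT), 46 to 51 (HP1α KO), 44 to 50 (HP1γ WT) and 38 to 50 (HP1γ KO). Of 3141 alternative values of named peaks 3095 kept direction and call, 45 lost the call, 1 gained it and 0 reversed.

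Elsewhere counts moved, and the cause was not tested. For HP1α KO against WT with Treg the 5 calls became 0 with the older estimate of edgeR, 0 with depth as a covariate, 0 with only the groups compared and 3 with all 18 libraries. For HP1γ naive cells the 0 calls became 1 with the older estimate, 1 with only the groups compared and 3 with DESeq2. For HP1γ Tconv the 3 became 6 with loess offsets and 1 with only the groups compared, and with Treg the 15 became 8 with only the groups compared. For Treg in HP1α KO cells the 1 call became 2 with loess offsets, 0 with the older estimate, 2 with all 18 libraries and 0 with only the groups compared. For Treg in HP1γ WT cells the 0 became 1 with loess offsets, 2 with the older estimate and 5 with DESeq2, and for Treg in HP1γ KO cells the 12 became 1 with only the groups compared. For the interaction the 0 calls became 1 with loess offsets (HP1α) and 3 with DESeq2 (HP1γ).

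With the replicate number as a block, calls for Treg in HP1γ WT cells became 3 and those for HP1γ KO against WT with Treg 17, and no other count moved by over 1.5 times. No block could be fitted for HP1α KO against WT with Treg, Treg in HP1α KO cells or the HP1α interaction, which share fewer than 2 replicate numbers.

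Leaving out single libraries gave 0 to 0 calls for KO against WT in naive cells of each line, 0 to 1 (HP1α) and 2 to 7 (HP1γ) in Tconv, and 0 to 3 and 7 to 19 with Treg. For Treg it gave 0 to 10 in HP1α WT, 0 to 3 in HP1α KO, 0 to 1 in HP1γ WT and 7 to 17 in HP1γ KO cells, and for the interaction 0 to 1 (HP1α) and 0 to 2 (HP1γ). The libraries that decided counts are named with the results, except those below. HP1α Tconv had 1 call without KO Tconv replicate 1, Treg in HP1γ WT cells 1 without WT Tconv replicate 3 or WT Tconv with Treg replicate 2, the HP1α interaction 1 without WT or KO Tconv replicate 2, and the HP1γ interaction 2 without KO Tconv with Treg replicate 2. In HP1α cells with Treg, 1 of 2 WT libraries had a depth of 1.49 M reads, and the part of this depth in the calls was not tested.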
